A study of Homo sapiens with 10 samples.

Results

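The genes named ZNF followed by a number were followed through a progestin treatment of T47D breast cancer cells measured on Affymetrix U133A 2.0 arrays. A gene belonged to the family by its symbol alone, and it was represented by whichever of its own probe sets had the highest mean over the 10 arrays. Of 232 such genes with a probe set paired with them alone, 209 reached a log2 signal of 6 on at least 1 array and were kept, among 10911 kept genes in all. The members nearest to that limit were ZNF141 and ZNF345, with highest arrays of 6.03 and 6.15, and the nearest genes left out were ZNF440 and ZNF549, both with a highest array of 5.87.

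All cells came from T47D-Y, a T47D derivative that lacks the progesterone receptor (PR), and 3 stable clonal lines were made from them. The iEV line carried empty inducible vectors and stayed PR-null, the iWT line carried inducible wild-type PR-B, and the iKR line carried inducible PR-B with the K388R change, which cannot be SUMOylated at that lysine. Receptor expression was switched on by the dimerizer AP21967, given for 2 days at 1 nM, or ethanol was given in its place, and the synthetic progestin R5020 at 10 nM or ethanol followed for 6 hours. The iEV cells were measured with and without AP21967, always without R5020, and iWT and iKR each with all 4 combinations, so that each of the 10 conditions was 1 array and each receptor was 1 clonal line. Receptor and clone therefore cannot be told apart, and no replicate array checks the differences between conditions.

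Most ZNF proteins are built from tandem zinc fingers of the Cys2-His2 kind, each of which reads a few bases of DNA, and many carry an N-terminal KRAB box. The KRAB box recruits the corepressor TRIM28, also known as KAP1, which brings in the histone methyltransferase SETDB1 and heterochromatin proteins, so that many family members act as repressors, in particular of retrotransposons. Many KRAB zinc finger genes lie in clusters on chromosome 19, and several members, such as the amplified oncogene ZNF217, are known from breast cancer. The symbol also covers a few genes of other kinds, such as the LIM domain gene ZNF185.

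The arrays carried the intended receptor and a progestin response. The PGR probe set was at 6.25 and 6.17 in iEV and between 10.65 and 12.08 on the 8 receptor arrays, and untreated cells, without AP21967 or R5020, already gave 11.12 (iWT) and 10.65 (iKR). The known progestin target FKBP5 was higher with R5020 by 2.95 in iWT and 3.04 in iKR under AP21967, and by 0.87 and 0.82 without it, so the arrays without AP21967 were not free of a response. All 10 luminal epithelial markers reached log2 6, with a median level of 13.51, and array medians ran from 8.12 to 8.15. Markers of other cell types had lower medians, 6.78 for 4 fibroblast genes, 6.29 for 3 leukocyte genes and 6.90 for 3 endothelial genes. Of these, 2 fibroblast, 3 leukocyte and 2 endothelial genes also reached log2 6. The highest fibroblast and leukocyte means, 9.7 and 8.22, lay above the lowest luminal mean of 7.68. Brightness cannot be compared as an amount between probe sets.

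The median of the ZNF family stayed near 0 with R5020, while single members spread in both directions. With AP21967, the median difference between R5020 and vehicle over the 209 members was -0.006 in iWT and -0.009 in iKR on the log2 scale, against -0.017 and 0.026 over all genes. Without AP21967 the medians were -0.030 and 0.008. The SD over the members was 0.151 in iWT and 0.148 in iKR without AP21967, and it was 0.242 and 0.348 with it, where all genes had 0.254 and 0.313. Single members ranged from -0.74 to 1.57 in iWT and from -1.36 to 1.56 in iKR. Median centring and cyclic loess moved the iKR family median to -0.034 and -0.037, with the all-gene median at 0.002 in both. Without _x_at and _s_at probe sets, which left 132 members, it was 0.030 against 0.024 over all genes. The family median thus stayed below that of all genes with either scaling, and its sign depended on the probe sets kept. In RNA from bulk cultures, fewer cells expressing a gene and less RNA per cell cannot be told apart.

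**Figure D1:**
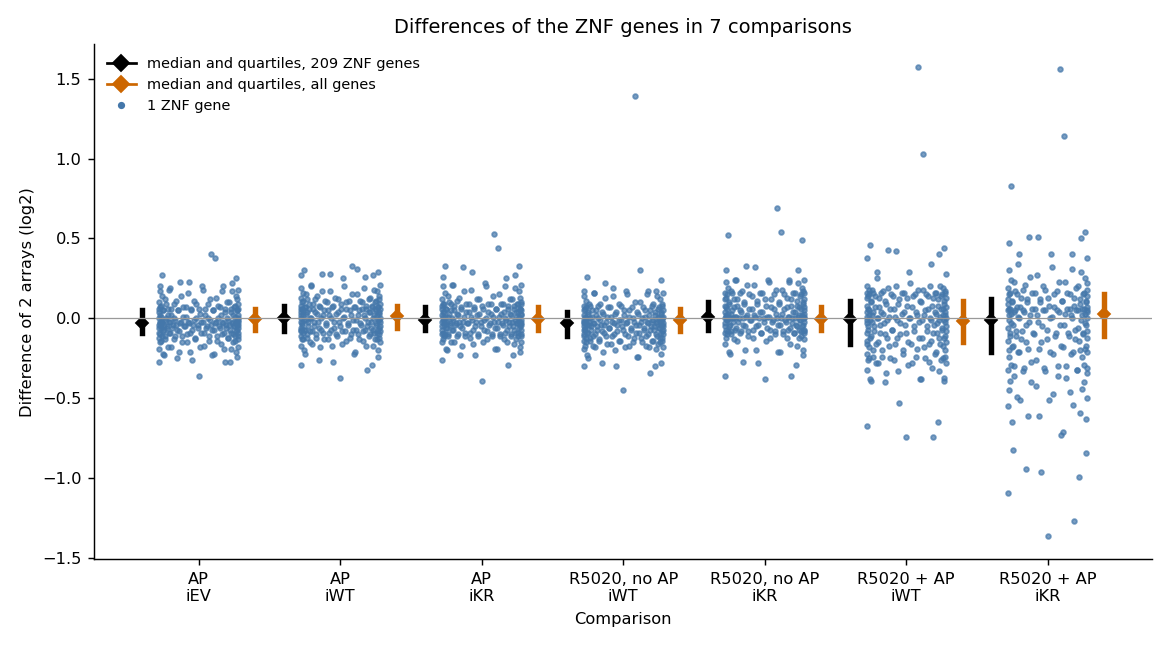
Differences between 2 arrays on the log2 scale (vertical axis) for the 209 ZNF genes in 7 comparisons (horizontal axis): AP21967 against none without R5020 in each line, and R5020 against vehicle without and with AP21967 (AP). Each dot is 1 gene; diamonds and bars are the median and quartiles of the ZNF genes (black) and of all 10911 genes (orange). The dots spread most for R5020 with AP21967 in iKR, from -1.36 to 1.56.

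A handful of members passed 2.0 fold. In iWT with AP21967, ZNF652 and ZNF189 were higher by more than 2.0 fold, 0.957% of the members against 0.513% of all genes, and no member was lower by that much, against 0.101% of all genes. In iKR, ZNF26 and ZNF189 were higher, 0.957% against 0.999%. ZNF175, ZNF350 and ZNF432 were lower in iKR by more than 2.0 fold, 1.44% of the members against 0.486% of all genes. At 1.5 fold the lower side of iKR held 15 members, 7.18% against 3.16% of all genes, and the higher side held 3 members, 1.44% against 3.02%. The same limit in iWT gave 4 members lower, 1.91% against 1.02%, and 2 higher, 0.957% against 1.59%. Without AP21967, ZNF652 alone passed 2.0 fold and 1.5 fold in iWT, where 0.0275% and 0.0917% of all genes were higher by that much, and ZNF652 alone passed 1.5 fold in iKR, where 0.0733% of all genes were higher by that much.

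The order of the arrays needs no fold threshold. The iKR array with R5020 and AP21967 was the lowest of the 4 iKR arrays for 92 members, 44.0% of the family, against 30.8% of all genes, and it was the highest for 34.4% of the family against 41.2% of all genes. In iWT the corresponding array was lowest for 35.9% of the members against 37.2% of all genes and highest for 30.6% against 31.7%. In both lines at once it was lowest for 42 members, 20.1% against 18.1% of all genes, and highest for 36, 17.2% against 19.4%.

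The response that the receptor lines shared was tested with limma, treating iWT and iKR as replicates of 1 R5020 effect. With AP21967, 28 of the 209 members changed at an adjusted p under 0.05, 13.4% of the family against 11.5% of all genes. At an unadjusted p under 0.05 the share was 28.2% against 26.8%. Of the 28, 11 members rose, 5.26% against 5.23% of all genes, and 17 fell, 8.13% against 6.25%. The members that rose were ZNF189, ZNF26, ZNF652, ZNF215, ZNF354A, ZNF556, ZNF550, ZNF22, ZNF764, ZNF276 and ZNF451, with fitted changes from 0.33 to 1.09. The members that fell were ZNF175, ZNF432, ZNF350, ZNF329, ZNF467, ZNF217, ZNF814, ZNF204P, ZNF222, ZNF580, ZNF91, ZNF106, ZNF165, ZNF239, ZNF552, ZNF506 and ZNF230, with changes from -1.05 to -0.32. ZNF204P is a pseudogene, and several others are KRAB genes with close paralogs whose transcripts a probe set may share. Dimmer second probe sets of ZNF814, ZNF467 and ZNF506 differed by -0.10, 0.03 and 0.16 in iWT and by 0.15, -0.12 and -0.08 in iKR. The calls of ZNF814 and ZNF506 were among those lost with the mean of each gene's probe sets. Second probe sets of ZNF22 and ZNF764 were higher in both lines, like the first, and that of ZNF451 is given below. Without either iWT array with AP21967 the effect is the iKR difference alone, with its spread taken from the arrays without AP21967 and assumed to be alike. More members were then called as fallen, and the share of all genes called under that setting is not given here.

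**Figure D2:**
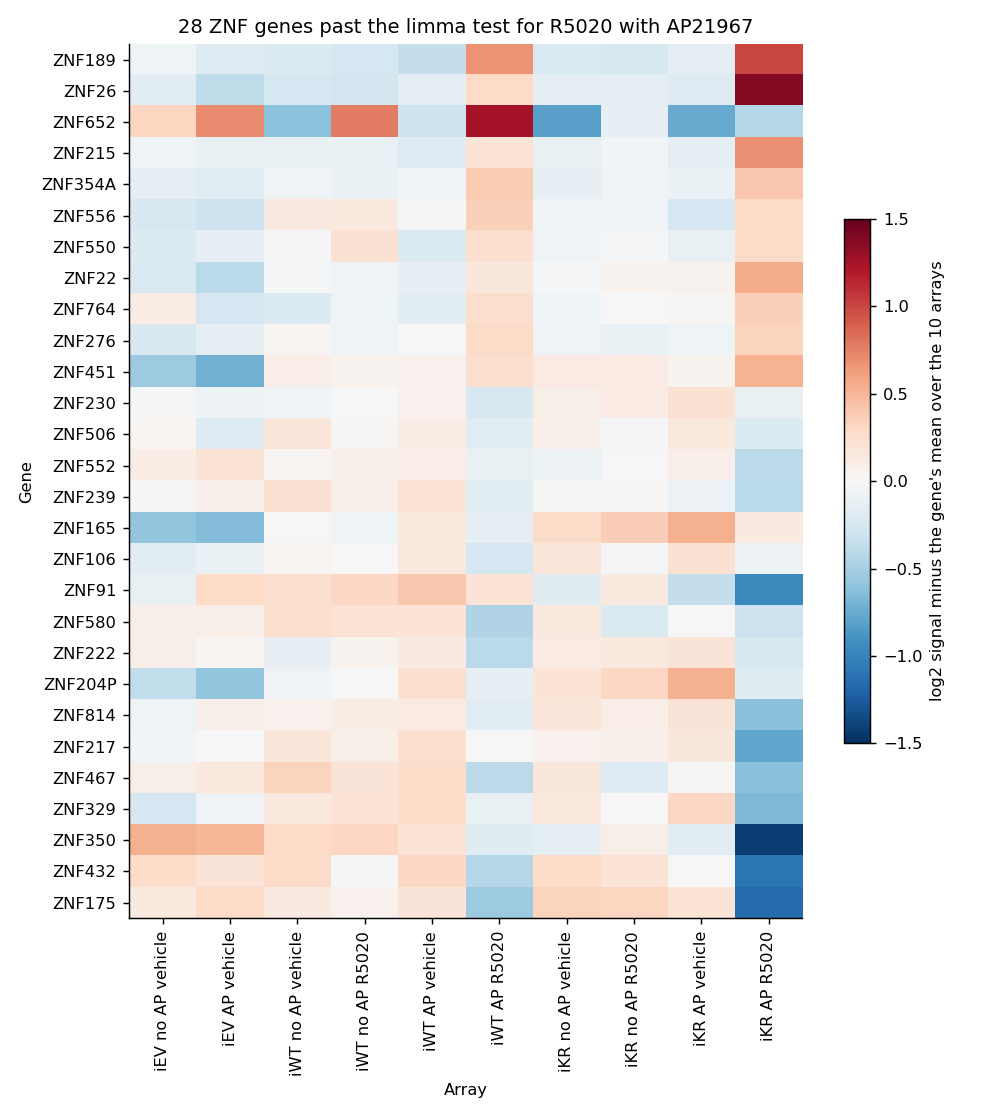
The 28 ZNF genes that passed the limma test for R5020 with AP21967 (vertical axis, ordered by fitted change) on the 10 arrays (horizontal axis). Colour is the log2 signal minus the gene's own mean over the 10 arrays. The genes were chosen for their difference on the R5020 arrays with AP21967; ZNF217 is low on that array in iKR (11.18) while its iWT array (11.95) lies among the others, and ZNF652 is also high on the iEV arrays and on the iWT array with R5020 alone.

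Fewer members changed more with AP21967 than without it. For that inducer-dependent response, limma called 4 members, 1.91% of the family against 2.1% of all genes. ZNF189 rose, against 1.41% of all genes that did, and ZNF175, ZNF222 and ZNF432 fell, 1.44% of the family against 0.687% of all genes. Without AP21967, limma called no member, against 0.00917% of all genes, while 2 members were above and 6 below 0 with an unadjusted p under 0.05, together 3.83% of the family against 3.95% of all genes. Leaving out an array leaves 1 line for the effect of that inducer state, with the spread of the other state assumed for it. More inducer-dependent rises and falls were then called without either iWT array with AP21967. More falls were called without either iKR array with it, and fewer without either iKR array lacking it. The shares of all genes called under these settings are not given here, so the changes do not set the family apart.

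ZNF652, whose protein is described as a DNA-binding partner of the corepressor CBFA2T3 in breast cells, had the highest R5020 difference of any member in iWT. Its only probe set read 8.84 in untreated iWT cells, 10.22 with R5020 alone, 9.14 with AP21967 alone and 10.70 with both. In iKR the same 4 conditions gave 8.64, 9.33, 8.70 and 9.02. The PR-null iEV cells read 9.78 without and 10.16 with AP21967, above every vehicle array of the receptor lines and above all iKR arrays. R5020 arrays were thus the highest within iWT and within iKR at either inducer state, and in iKR the values with R5020 stayed below those of PR-null cells.

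Among all 10911 genes, the R5020 difference of ZNF652 without AP21967 was the highest in iWT, at 1.39, and ranked 7 in iKR, at 0.69. With AP21967 it was 1.57 in iWT, rank 22, and 0.31 in iKR, rank 968. The difference between the lines was -1.26, the 4th lowest of all genes. limma gave a shared rise with AP21967 of 0.94 (SE 0.25, adjusted p = 0.045) and an inducer-dependent change of -0.10 (SE 0.36, adjusted p = 0.95). The shared rise did not pass the test with the mean of each gene's probe sets, with cyclic loess, with robust limma or without either iWT array with AP21967, and its adjusted p ranged from 4.4e-05 to 0.22 over the alternatives. Compared with iEV at the same inducer state, vehicle-treated iWT cells differed in ZNF652 by -0.94 without and -1.02 with AP21967, and iKR cells by -1.14 and -1.45.

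ZNF26, a KRAB zinc finger gene of chromosome 12, was close to flat on 8 arrays and high on those with AP21967 and R5020 together. It read between 8.97 and 9.22 on the 8 arrays without that combination, 9.65 in iWT with both agents and 10.73 in iKR with both. The R5020 difference with AP21967 was 0.43 in iWT and 1.56 in iKR, and without AP21967 it was under 0.01 in size in both lines. The iKR minus iWT difference of 1.13 was the highest among the members, and with 1 array per condition it had no test. limma gave a shared rise of 1.00 (SE 0.20, adjusted p = 0.016) and an inducer-dependent change of 1.00 (SE 0.29, adjusted p = 0.13). The shared call was lost with robust limma, at an adjusted p of 0.088, and the range over the alternatives was 9.5e-08 to 0.088.

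ZNF189, another KRAB gene, rose in the shared response with similar differences in the 2 lines. It read between 8.95 and 9.24 on the 8 arrays without the combination of AP21967 and R5020, 9.98 in iWT with both and 10.31 in iKR with both. Neither of these arrays overlapped the others. The R5020 differences with AP21967 were 1.03 and 1.14, against -0.07 and -0.02 without it. limma gave an inducer-dependent rise of 1.13 (SE 0.11, adjusted p = 0.0014), the smallest adjusted p of any member, and the range over the alternatives was 1.7e-05 to 0.0037. ZNF215, an imprinted KRAB gene, had a smaller difference of the same kind, at 7.59 to 7.75 on 8 arrays, 7.99 in iWT and 8.47 in iKR with both agents. Its shared rise with AP21967 was 0.61 (SE 0.10, limma adjusted p = 0.0069).

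**Figure D3:**
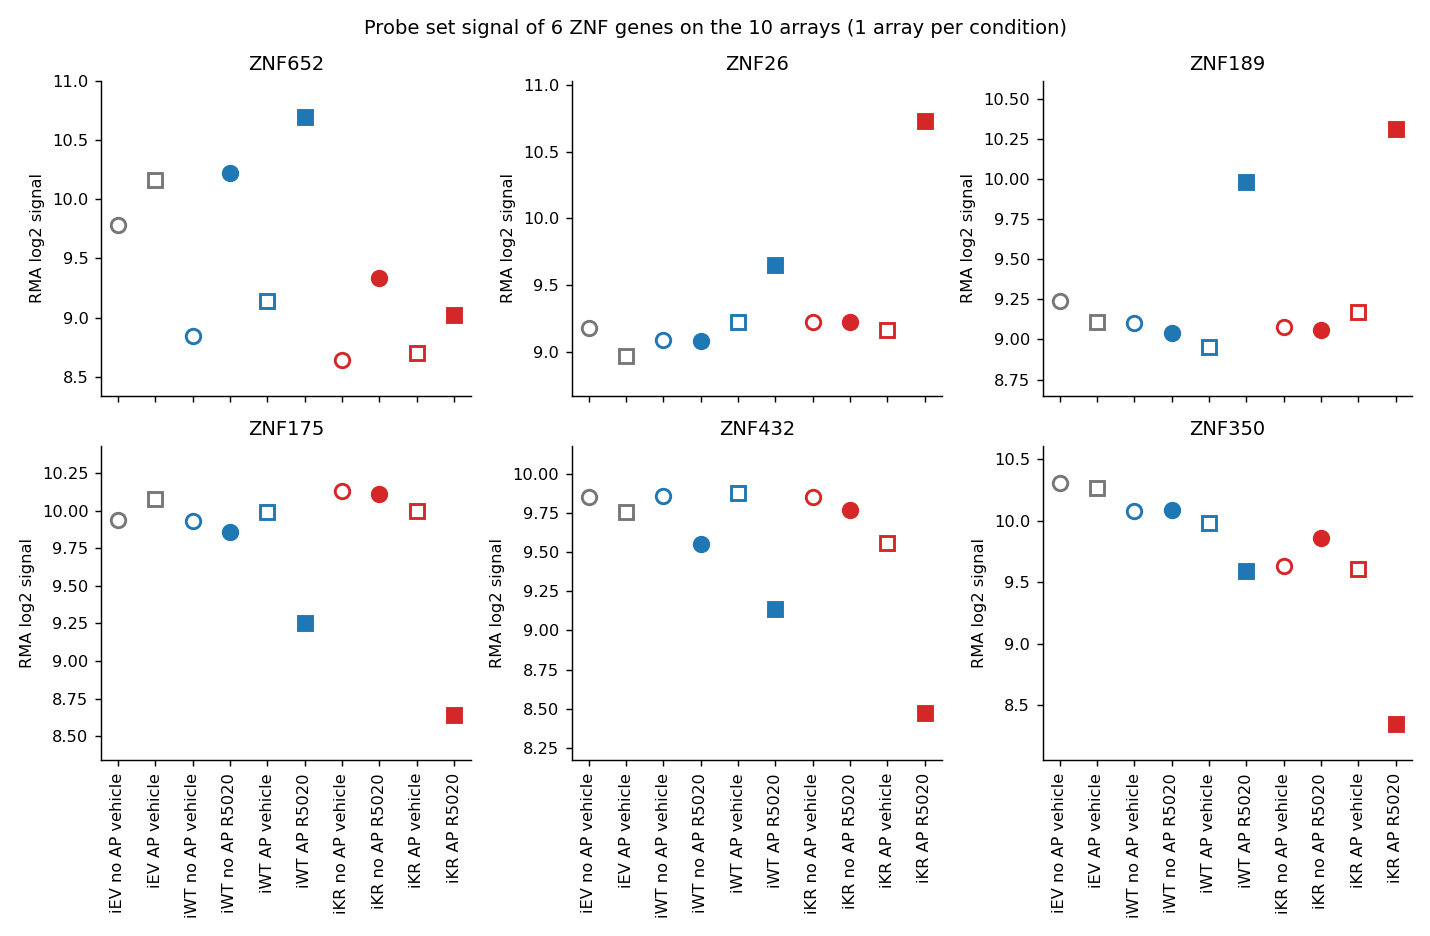
RMA log2 signal (vertical axes, each scaled to its gene and not starting at 0) of 6 ZNF genes on the 10 arrays (horizontal axis). Grey is iEV, blue iWT and red iKR; squares have AP21967, circles do not; filled symbols have R5020. ZNF26 and ZNF189 are highest, and ZNF175, ZNF432 and ZNF350 lowest, with AP21967 and R5020 together, while ZNF652 is high with R5020 alone in iWT and in untreated iEV cells.

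On the other side were ZNF175, also called OTK18, ZNF432 and ZNF350, also called ZBRK1 for its binding to BRCA1. They had the lowest R5020 differences of all members in iKR with AP21967, and all 3 are KRAB genes of chromosome 19. ZNF175 read 9.86 to 10.13 on the 8 arrays without the combination of AP21967 and R5020, 9.25 in iWT with both and 8.64 in iKR with both. The corresponding values of ZNF432 were 9.55 to 9.88, 9.14 and 8.47. Both genes were lowest on the R5020 arrays with AP21967, and for both the iKR array was below the iWT array. ZNF350 read 9.59 in iWT and 8.35 in iKR with both agents, against 9.61 to 10.31 elsewhere, so that its iWT value lay just below that of vehicle-treated iKR cells.

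The R5020 difference of ZNF175 with AP21967 was -0.74 in iWT and -1.36 in iKR, which placed it 11th from the lowest of all genes in iKR. limma gave an inducer-dependent change of -1.01 (SE 0.18, adjusted p = 0.030), which was lost with cyclic loess at 0.078. ZNF432 differed by -0.74 and -1.09, and limma gave -0.73 (SE 0.15, adjusted p = 0.043) for the inducer-dependent part, a call that did not hold under 5 of 17 alternatives. ZNF350 differed by -0.39 and -1.27, fell by 0.83 in the shared response with AP21967 (SE 0.17, limma adjusted p = 0.015) and had an inducer-dependent adjusted p of 0.088. ZNF222, the other inducer-dependent member, read 7.79 to 8.11 on 8 arrays, 7.51 in iWT and 7.67 in iKR with both agents, and fell by 0.58 (SE 0.11, limma adjusted p = 0.039). Its probe set is of the _x_at kind, which may read other transcripts, and the call was lost when any of the 4 arrays without AP21967 was left out.

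The R5020 differences of the receptor lines went together across the members when AP21967 was present. Over the 209 genes, 66 members were higher in both lines and 75 lower in both. Signs thus agreed in 141 members, against 6993 of all 10911 genes. Pearson's r was 0.58 and Spearman's rho 0.504. Without AP21967 r and rho were 0.254 and 0.0419. Over all 10911 genes they were 0.651 and 0.482 with AP21967 and 0.183 and 0.149 without. These are descriptions across genes, which are not independent replicates, and no array was used for both axes.

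**Figure D4:**
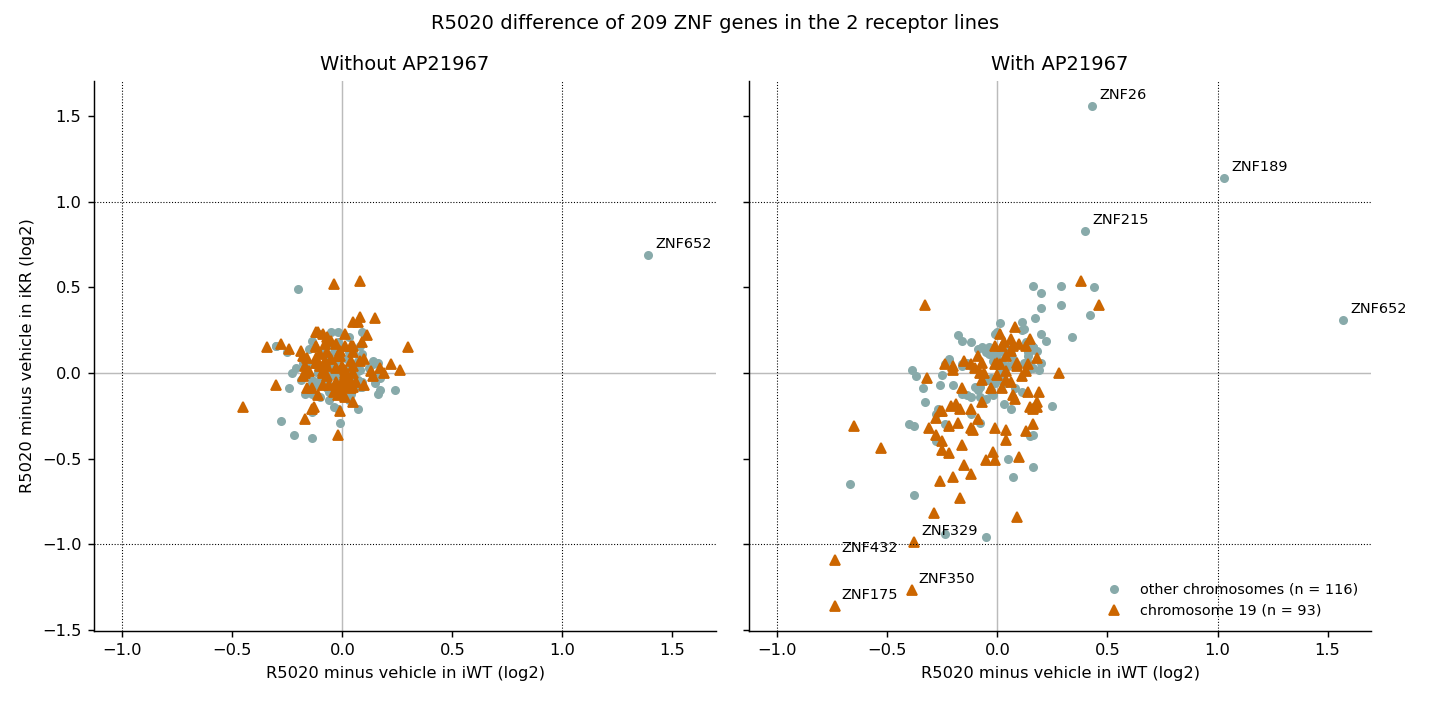
R5020 minus vehicle on the log2 scale in iWT (horizontal axis) and iKR (vertical axis) for the 209 ZNF genes, without (left) and with (right) AP21967. Triangles are the 93 members on chromosome 19 and circles the 116 others; dotted lines mark 2.0 fold. Without AP21967 ZNF652 lies alone at 1.39 and 0.69, and with AP21967 chromosome 19 members extend downwards in iKR.

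Promoter sequence was read for the genes whose values carry these results, to show what lies before their starts. RefSeq promoter entries (GRCh38.p14) matched 175 of the 209 members, and the 250 bases before each annotated start were searched on both strands. The steroid receptor response element, taken as GNACA and TGTNC with 3 bases between them, was in the window of 1 member, ZNF532, or 0.571% of the 175, against 0.354% of 8767 genes of the arrays. The half-site TGTTCT was in 13 of the 175 members against 1051 of the 8767 genes, the GC box GGGCGG in 62.9% against 69.8%, and GCATGCGC, the core of the NRF1 site, in 7.43% against 4.95%. The GC box and the NRF1 core were added after the sequences had been read. None of the 4 windows printed here holds the element or the half-site, and capitals mark GC boxes and NRF1 cores on either strand. Sequence beyond these 250 bases was not searched, so absence from a window says nothing about more distant sites. ZNF652 has 2 starts. The printed window of its first start (chr17:49362251-49362500, minus strand) holds 5 GC boxes and 1 NRF1 core that reads alike on both strands. That of its second start, not printed, holds 2 GC boxes and such a core. The windows of ZNF26 (chr12:132986117-132986366, plus strand) and ZNF175 (chr19:51571033-51571282, plus strand) each hold an NRF1 core. The ZNF189 window (chr9:101398601-101398850, plus strand) holds 1 GC box. The windows of ZNF432, which has 3 starts, and ZNF350 hold neither the response element, the half-site nor an NRF1 core.
ZNF652: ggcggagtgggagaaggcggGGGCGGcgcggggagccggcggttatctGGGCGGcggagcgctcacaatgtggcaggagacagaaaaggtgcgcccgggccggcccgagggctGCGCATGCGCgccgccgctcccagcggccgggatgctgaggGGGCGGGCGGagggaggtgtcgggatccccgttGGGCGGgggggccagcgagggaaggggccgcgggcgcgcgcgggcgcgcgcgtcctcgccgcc
ZNF26: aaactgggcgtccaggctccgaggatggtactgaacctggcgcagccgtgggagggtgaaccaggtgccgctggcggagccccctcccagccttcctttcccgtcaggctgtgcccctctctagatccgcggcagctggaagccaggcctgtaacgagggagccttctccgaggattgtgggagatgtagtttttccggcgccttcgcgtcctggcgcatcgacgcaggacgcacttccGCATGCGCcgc
ZNF189: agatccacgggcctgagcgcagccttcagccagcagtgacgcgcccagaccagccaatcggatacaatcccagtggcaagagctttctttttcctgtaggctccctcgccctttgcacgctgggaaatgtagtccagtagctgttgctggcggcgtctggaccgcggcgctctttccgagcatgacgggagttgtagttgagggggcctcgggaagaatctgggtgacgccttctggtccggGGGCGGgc
ZNF175: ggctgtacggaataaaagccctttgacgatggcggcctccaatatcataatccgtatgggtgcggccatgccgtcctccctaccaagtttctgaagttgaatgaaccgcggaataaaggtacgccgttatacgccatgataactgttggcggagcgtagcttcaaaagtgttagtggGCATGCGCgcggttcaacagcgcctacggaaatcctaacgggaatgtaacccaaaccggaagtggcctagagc

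The ZNF genes of chromosome 19 held most of the lower R5020 differences in iKR. By the RefSeq gene table, 93 members lay on chromosome 19 and 116 elsewhere. With AP21967 in iKR, the median R5020 difference was -0.133 on chromosome 19 and 0.050 elsewhere, while the other 677 genes of chromosome 19 had a median of 0.034. Of the 93, 10 were lower by more than 1.5 fold (10.8%), against 5 of the 116 others (4.31%) and 7 of the other 677 genes of the chromosome (1.03%). Among all genes the share was 3.16%. In iWT the medians were -0.035 and 0.004, but the other 677 genes of chromosome 19 were lower there, at -0.068. The lower iWT median was thus not particular to the ZNF genes of the chromosome. In iKR without AP21967 the chromosome 19 members had a median of 0.040. limma for the shared response with AP21967 called 2 members of chromosome 19 as risen and 11 as fallen (11.8%), 9 and 6 of the other members, and 10 and 42 of the other genes of the chromosome (6.20% fallen). Of all genes, 5.23% were called as risen and 6.25% as fallen. The chromosome was looked at after the values were known, so these counts are a description and carry no test.

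Within chromosome 19 the lowest R5020 differences in iKR included neighbours. A run of 18 consecutive members from ZNF175 to ZNF331, picked out for its values, held 5 of the 10 members lower by more than 1.5 fold, namely ZNF175, ZNF350, ZNF432, ZNF83 and ZNF468. Under AP21967, 14 of the 18 were below 0 in iKR and 14 in iWT. Among all 93 ZNF members of the chromosome, 64.5% were below 0 in iKR and 58.1% in iWT. Its 677 other genes had 43.1% in iKR and 63.5% in iWT. Medians over the run were -0.29 in iKR and -0.10 in iWT under AP21967. In cells not given AP21967 these medians were 0.08 and -0.07. The other 5 of the 10 were ZNF329 at -0.99, ZNF43 at -0.84, ZNF814 at -0.82, ZNF112 at -0.63 and ZNF91, a repressor of SVA retrotransposons, at -0.61. The second, dimmer probe set of ZNF814 differed by 0.15 in iKR. The kind of probe set moved with the chromosome 19 values. In iKR the median was -0.296 for the 21 members on _x_at probe sets, which may read several genes. It was 0.007 for the 21 on _s_at probe sets and -0.094 for the 51 on neither kind, among them ZNF814 on an _f_at probe set. The part of the probe set kind in the result was not tested. The chromosome 19 median lay between -0.165 and -0.093 under the alternatives tried.

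**Figure D5:**
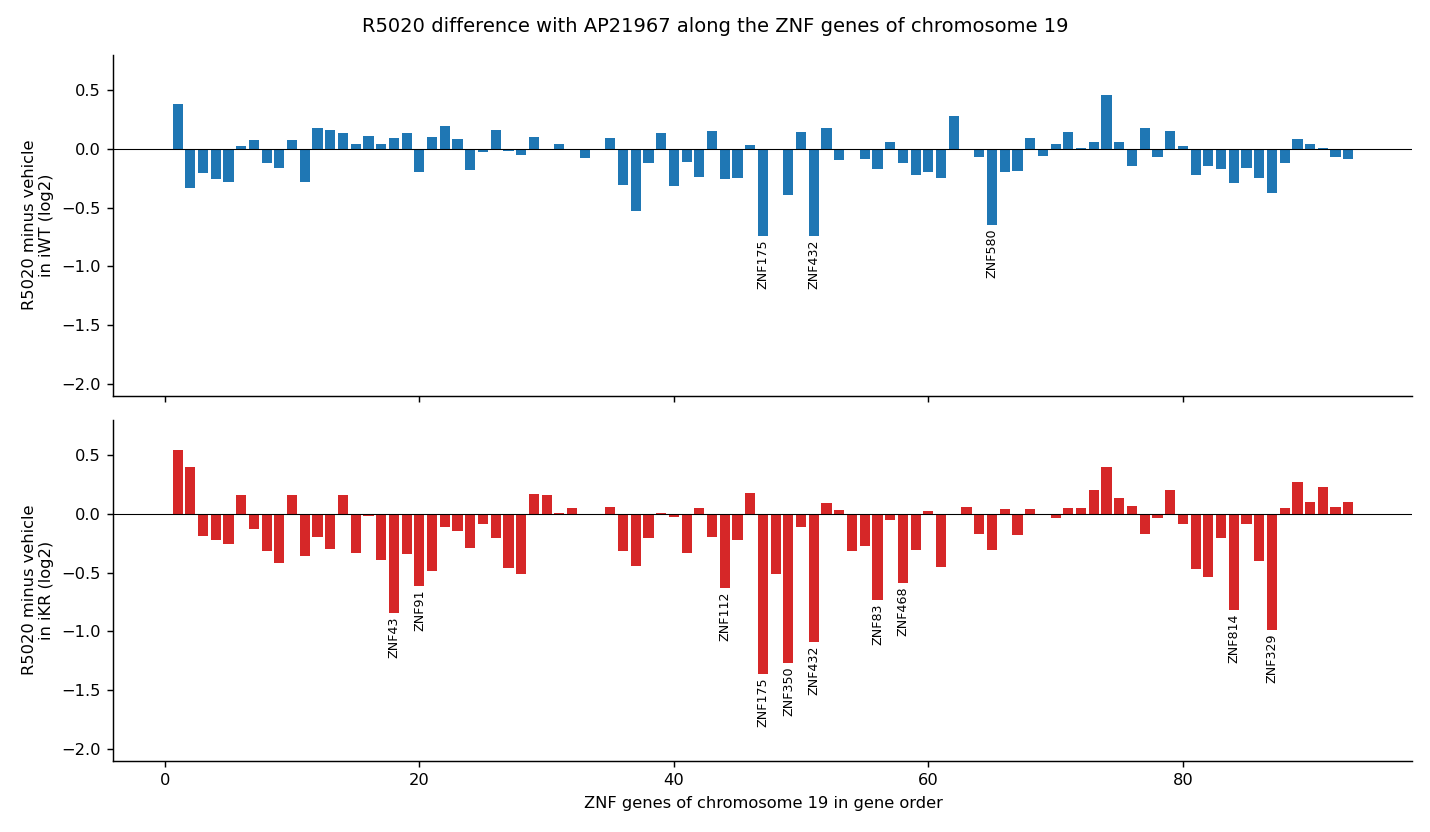
R5020 minus vehicle with AP21967 on the log2 scale (vertical axes) for the 93 ZNF members of chromosome 19, in gene order along the chromosome (horizontal axis, rank and not distance), in iWT (top) and iKR (bottom). Genes lower by more than 1.5 fold are named. The iKR panel has 10 of them, 5 in the run from ZNF175 to ZNF331, and the iWT panel has 3.

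The 2 receptor lines were set against each other gene by gene, with 1 array per condition and no test. By more than 1.5 fold, the R5020 difference with AP21967 was higher in iKR for 2 members, ZNF26 by 1.13 and ZNF557 by 0.73, 0.957% of the family against 1.03% of all genes. It was lower in iKR for 10 members, 4.78% against 1.48%. The lowest were ZNF652 at -1.26, ZNF43 at -0.93 and ZNF750, a regulator of epidermal differentiation, at -0.91, followed by ZNF350 at -0.87. ZNF217, which encodes a transcriptional repressor, read 11.92 to 12.20 on 9 arrays and 11.18 on the iKR array with both agents, so its fitted fall of 0.59 (SE 0.14, limma adjusted p = 0.029) came with a difference of -0.24 in iWT and -0.94 in iKR. Without either iKR array with AP21967, or with cyclic loess, the fall of ZNF217 did not pass the test, and its adjusted p reached 0.11. The PGR probe set itself had an iKR minus iWT difference of -1.26, with R5020 differences of 0.55 in iWT and -0.71 in iKR, and its part in these differences was not tested.

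AP21967 alone left the family close to where it was. No member passed 1.5 fold in iEV, iWT or iKR, where 0.0183%, 0.055% and 0.11% of all genes were higher by that much and up to 0.0275% were lower. The member medians were -0.028 in iEV and -0.012 in iKR, and the SD over the members was 0.119 to 0.126. Over the 3 lines the members ran from -0.39, for the KRAB gene ZNF224 in iKR, to 0.53, for ZNF750 in iKR, with ZNF571 at 0.44 in iKR and ZNF91 at 0.40 in iEV next on the higher side.

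The receptor lines differed from iEV in a few members without any progestin. These comparisons share the iEV arrays as their control. ZNF613 read 8.28 and 8.50 in iEV, 7.76 and 7.61 in vehicle-treated iWT, and 7.12 and 7.01 in vehicle-treated iKR, without and with AP21967. The iKR minus iEV differences were -1.16 and -1.5, where 0.935% and 0.825% of all genes were lower by more than 2.0 fold. With AP21967, ZNF165 and ZNF204P were higher in iKR than in iEV by 1.18 and 1.11, against 0.788% of all genes higher by more than 2.0 fold. ZNF652 was the only other member past 2.0 fold, lower in iKR in both states and in iWT with AP21967, where 0.687% of all genes were lower.

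A list of 18 members with described roles in breast cancer or steroid receptor signalling had 14 measured. Its median R5020 difference with AP21967 was 0.082 in iWT and 0.083 in iKR. In the shared response limma called 3 of the 14 as risen and 3 as fallen, together 42.9% of the list. Of all genes, 5.23% were called as risen and 6.25% as fallen, together 11.5%. In the inducer-dependent response it called none of the list, against 2.1% of all genes. The list was chosen with earlier results known. The risen genes were ZNF652, the glucocorticoid receptor cofactor ZNF764 and the SUMO ligase ZNF451, and the fallen ones were ZNF217, ZNF350 and ZNF91. ZNF764 read 7.21 to 7.57 on the 8 arrays without the combination of agents, 7.72 in iWT and 7.82 in iKR with both, and rose by 0.38 (SE 0.08, limma adjusted p = 0.016). ZNF451 rose by 0.33 (SE 0.09, limma adjusted p = 0.044), a call lost under 8 of 18 alternatives. The second probe set of ZNF451 differed by -0.16 in iWT and -0.08 in iKR, opposite in sign to the first. Of the other 8, the general activator ZNF143, the estrogen receptor coactivator ZNF282, the spindle protein ZNF207 and ZNF148 each stayed within 0.12 of 0 in both lines. The androgen receptor cofactor ZNF318 differed by 0.16 in iWT and 0.51 in iKR (limma adjusted p = 0.055), and ZNF24 by -0.28 and -0.24 (limma adjusted p = 0.063). ZNF281 differed by 0.20 and 0.23 and ZNF224 by 0.13 and 0.01, and neither passed the test (limma adjusted p = 0.12 and 0.64).

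The genes of the proteins through which KRAB factors act were looked at next. Of 18 listed partners, 14 were measured, with median R5020 differences with AP21967 of -0.22 for iWT and -0.092 for iKR. By limma 1 of them was called, 7.14% against 11.5% of all genes in the shared response and 2.1% in the inducer-dependent one. It was ATF7IP, the partner that stabilizes SETDB1, which differed by -0.62 and -0.67 and fell in the inducer-dependent response (-0.60, SE 0.11, adjusted p = 0.030). TRIM28 differed by -0.39 and -0.12, and its shared change did not pass the test (limma adjusted p = 0.12). Among zinc finger genes under other names, limma called 2 of 24 ZBTB genes as risen and 1 as fallen, 2 of 13 KLF genes as risen and 3 as fallen, 2 of 8 ZFP genes as fallen and 1 of 14 ZSCAN and ZKSCAN genes as fallen in the shared response with AP21967. These were 12.5%, 38.5%, 25% and 7.14% of the families, against 11.5% of all genes, and the families are small. The 2 fallen ZFP genes, ZFP36L1 and ZFP36L2, encode mRNA-binding proteins with another kind of finger. ZBTB16, also called PLZF, differed with R5020 by 1.73 in iWT and 1.32 in iKR with AP21967, a shared rise of 1.52 (SE 0.24, limma adjusted p = 0.0051), and by 1.29 and -0.02 without it. It read 7.61 and 7.47 in iEV against 5.95 in untreated iWT cells.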

How the data were processed

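The authors hybridised RNA from 10 conditions, 1 each, to Affymetrix U133A 2.0 arrays and normalized the raw files with Robust Multi-array Average in the affy package of R (versions not given in the sources used here), so the deposited values are log2 probe set signals. Doses are those of the study's methods; read literally, the labels' notation would be 10 nM AP21967 and 100 nM R5020. The platform annotation names a single gene for 19070 of 22277 probe sets, more than 1 for 1043 and none for 2164. A gene entered the analysis if at least 1 array reached log2 6. Differences of single arrays have no test. limma 3.58.1 (R 4.3.3) was fitted to the 8 iWT and iKR arrays over all 10911 genes, with 4 means (1 per line with or without AP21967) and 2 R5020 effects, 1 for either inducer state, leaving 2 residual degrees of freedom, and Benjamini-Hochberg calls under 0.05. The fit treats iWT and iKR as replicates and does not compare them. Its p-values rest on each gene's spread between these 2 lines and on a variance that limma pools over all genes. The pooled variance carried 6.832 prior degrees of freedom against 2 residual ones, and the number of arrays limits the precision. Alternatives were the level filter, the probe set, the scaling, other limma settings, leaving out each array and, added after seeing the data, another vehicle reference. Genes were named by the extremes of each comparison, limma calls and a list of described members; chromosome 19 neighbours, ZNF613, ZNF165 and ZNF532 were named after their values were seen. Members and lists were chosen with earlier results of these data known. Promoters and chromosomes are from RefSeq.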

Additional observations from a re-analysis of the deposited data

Results flagged for a closer look

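ZNF43 and ZNF623 had R5020 differences with AP21967 of opposite sign in the receptor lines. Signs agreed in 141 of the 209 members and in 6993 of all 10911 genes, so a differing sign was not rare. The iWT values of the 2 genes were within the SD over the members there, 0.242. ZNF43 differed by 0.09 in iWT and -0.84 in iKR, a difference of -0.93, and ZNF623 by 0.07 and -0.61, a difference of -0.69. Both rest on 1 array per condition, and the difference between the lines was not tested. ZNF43 is on an _x_at probe set, which may read related genes.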

How the results depend on the processing

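With 1 array per condition and 2 residual degrees of freedom, counts of calls depended on the settings, and no called result changed direction. No paired analysis was possible because every condition has only replicate number 1; the limma fit itself compares R5020 with vehicle within each line and inducer state. Leaving out _x_at and _s_at probe sets kept 132 members, with 1 higher past 2.0 fold in iWT and 1 in iKR, and an iKR median of 0.030. That setting also gave 1 member lower past 1.5 fold for AP21967 without R5020 in iWT, no inducer-dependent rise and 11 shared falls. ZNF189, ZNF222 and ZNF432 have no other kind of probe set and were not measured there. All 19 of the shared calls that were measured held, among them ZNF814, which stayed on an _f_at probe set. Median centring gave medians of -0.027 in iWT and -0.034 in iKR and 0.019 for AP21967 in iWT. Cyclic loess gave -0.037 in iKR with 5 members lower, -0.038 for iKR minus iWT, and 1 inducer-dependent fall. A mean level of 7 gave 0.017 for AP21967 in iWT and 0.023 for iKR minus iWT. A limit of 1.5 fold gave 4 lower in iWT, 15 lower in iKR and 1 higher in iKR without AP21967, and 2.0 fold gave 1 higher and 1 lower for iKR minus iWT. Net of the difference without AP21967, 1 member was higher in iWT and 6 lower in iKR. The vehicle array without AP21967 as reference, added after seeing the data, gave 1 higher in iWT and a median of -0.034 in iKR. All 10 arrays gave 6 inducer-dependent rises and 5 falls, the limma trend 5 falls, and an adjusted p under 0.1 gave 6 rises, 7 falls and 30 shared falls. Leaving out 1 array, so that 1 inducer state rests on 1 line and borrows the other's spread, gave 1 to 11 inducer-dependent rises, 1 to 32 falls, 15 to 39 shared falls, 9 to 15 shared rises and 0 to 1 rises without AP21967. Arrays carry no read depth, and dim probe sets near log2 6 are the least reliable. The cause of these changes was not tested.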
